A study of Mus musculus with 15 samples.

Results

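The genes described here are imprinted, meaning that in some or all tissues 1 copy is expressed according to whether it came from the mother or the father. A list of 46 gene symbols was searched for among the names of the 65522 transcription units in the deposited table of normalised FPKM, and all 46 were found, in 66 units. They lie in 18 imprinted domains. By textbook assignment 21 of the genes are expressed from the maternal copy and 24 from the paternal copy, and 1 (Gnas) uses both in different transcripts. Levels were measured by RNA-seq, after poly(A) selection, in female mouse embryonic fibroblasts on a C57BL/6 background, and the study compared cells with and without CIZ1, a nuclear protein that accumulates at the inactive X chromosome, before and after adaptation to culture.

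There were 15 samples in 6 groups. The WT primary group held 3 populations grown from 3 different embryos (named E13.1, E13.8, E14.4) and collected before passage 5, and the WT culture-adapted group held the 3 lines derived from them by continued passage. The CIZ1 null animals were homozygous for a neomycin gene trap downstream of exon 1 of Ciz1 (CIZ1 -/-). They gave 2 primary populations (E13.15 and E14.2), 2 untreated primary samples that also carry a doxycycline-inducible GFP-CIZ1 transgene, 2 such samples (S14 and S15) given doxycycline (5 to 10 µg per ml) for 24 h, and 3 culture-adapted lines, from E13.15, from E13.17 and from E14.2. The labels give the genotype of the adapted E13.17 line as CIZ1 -/-, and the study lists it as carrying the inducible transgene, like its primary population. One of the untreated transgenic samples, E13.17, completed the study's set of 3 primary CIZ1 null populations and the other is called S13. Each adapted line comes from 1 population of 1 embryo, so a value found in a single line has no replicate of its own. Ciz1 was at 19 to 25 FPKM in the 3 primary and 18.7 to 24.1 in the 3 adapted WT samples, at 0.0546 to 0.724 in the 7 null samples without doxycycline, and at 296 and 191 in S14 and S15. All 10 fibroblast markers examined were above 0 in every group, but lines stood apart. Thy1, a surface marker of fibroblasts, was at 0.1 and 0.234 FPKM in the adapted lines of E13.8 and E13.17, against 256 to 901 in the other 4 and 995 to 1569 in the 6 primary samples they came from. Dcn, a matrix proteoglycan gene, was at 894 to 1111 FPKM in the adapted lines of E14.4, E13.15 and E14.2 and at most 76.1 in these primary samples.

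Imprints are patches of DNA methylation laid down in the egg or the sperm and copied at each cell division, and each patch controls a cluster of genes around it. Many clusters hold a growth regulator and a long non-coding RNA that is expressed from the opposite parental copy. Imprinted genes are best known for control of growth in the embryo and placenta, where paternally expressed genes often promote growth and maternally expressed genes often restrain it. FPKM sum both copies of a gene, and the mice were of a single strain, so which copy was read was not measured here.

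Several of the non-coding members are host transcripts of microRNAs, and these sequences are shown because they are part of these host RNA, whose levels are given below. The names of the member units hold 13 microRNA genes, with 24 mature sequences in RefSeq (GRCm38.p6), all with different seeds. The mature microRNAs themselves were not measured. In the sequences, capitals mark the seed, bases 2 to 8. The first pair comes from H19, on chr7:142577078-142577133, minus strand, the next comes from Meg3 and the others come from the Mirg unit, both on the plus strand of chromosome 12.
miR-675-5p: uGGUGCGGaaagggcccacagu
miR-675-3p: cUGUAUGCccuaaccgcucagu
miR-770-5p: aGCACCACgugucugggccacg
miR-134-5p: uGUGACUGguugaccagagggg
miR-377-3p: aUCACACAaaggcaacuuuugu
miR-410-3p: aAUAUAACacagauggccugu
miR-485-3p: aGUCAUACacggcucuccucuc

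RefSeq promoter windows, from 250 bases before to 50 after an annotated start, were found for 36 of the 46 genes (55 windows). Methylation of an imprint is carried on CG dinucleotides, so these are in capitals in the windows shown, which belong to 5 genes whose levels are described below. The windows are promoters and were not matched to the patches that carry imprints, so a capital does not mark an imprint site. CG (a palindrome, so the same on both strands) occurred a median of 13 times in the windows of the imprinted genes and 7 times over all 32851 windows, 94.6% of which hold at least 1. Methylation was not measured, and a count of CG says nothing of the factor or mark present in these cells.
Igf2 (chr7:142658755-142659054, minus strand, the Igf2 window with most CG, 24): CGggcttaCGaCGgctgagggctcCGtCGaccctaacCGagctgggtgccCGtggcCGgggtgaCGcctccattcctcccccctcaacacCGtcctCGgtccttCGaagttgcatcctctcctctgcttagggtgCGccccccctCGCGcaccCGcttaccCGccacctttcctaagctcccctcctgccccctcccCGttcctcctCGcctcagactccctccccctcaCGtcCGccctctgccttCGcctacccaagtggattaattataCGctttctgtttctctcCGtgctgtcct
Dlk1 (chr12:109452573-109452872, plus strand, 9 CG): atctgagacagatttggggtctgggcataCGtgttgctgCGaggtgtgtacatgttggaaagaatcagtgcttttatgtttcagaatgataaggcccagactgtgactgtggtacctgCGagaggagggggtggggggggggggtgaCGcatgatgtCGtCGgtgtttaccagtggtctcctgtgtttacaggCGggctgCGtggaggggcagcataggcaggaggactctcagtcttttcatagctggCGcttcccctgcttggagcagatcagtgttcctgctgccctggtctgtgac
Meg3 (chr12:109540746-109541045, plus strand, 13 CG): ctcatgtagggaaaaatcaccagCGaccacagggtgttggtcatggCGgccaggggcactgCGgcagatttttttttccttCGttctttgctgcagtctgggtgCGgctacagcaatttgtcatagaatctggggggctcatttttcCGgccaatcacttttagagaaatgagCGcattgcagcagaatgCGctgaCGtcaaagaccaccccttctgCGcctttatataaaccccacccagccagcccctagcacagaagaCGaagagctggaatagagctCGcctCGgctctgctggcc
Nnat (chr2:157559828-157560127, plus strand, 17 CG): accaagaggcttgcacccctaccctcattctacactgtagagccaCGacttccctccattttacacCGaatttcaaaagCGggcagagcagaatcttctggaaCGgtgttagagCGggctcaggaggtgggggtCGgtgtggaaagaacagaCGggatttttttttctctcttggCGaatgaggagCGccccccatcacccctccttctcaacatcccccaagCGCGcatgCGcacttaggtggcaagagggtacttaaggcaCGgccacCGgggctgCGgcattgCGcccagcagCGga
Peg3 (chr7:6730370-6730669, minus strand, 13 CG): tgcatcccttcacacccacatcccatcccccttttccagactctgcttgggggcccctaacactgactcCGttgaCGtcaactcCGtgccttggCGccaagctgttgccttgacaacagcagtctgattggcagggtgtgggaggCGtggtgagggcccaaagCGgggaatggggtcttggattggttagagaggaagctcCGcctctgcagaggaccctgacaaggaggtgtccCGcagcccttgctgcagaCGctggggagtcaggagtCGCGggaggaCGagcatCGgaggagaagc

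The embryonic fibroblasts expressed most of the list. Taking for each gene its unit with the highest mean, 34 of the 46 genes had a mean of at least 1 FPKM over the 15 samples and 13 exceeded 100 FPKM in some sample. Gnas, which encodes the stimulatory G protein alpha subunit, had the highest mean level per length over the 15 samples, and ranged from 477 to 951 FPKM. Of the 12 other genes, 6 never reached 1 FPKM, and Kcnk9, a potassium channel gene, was listed at 0 throughout. Magel2, Rasgrf1, Ascl2, Kcnq1ot1 and Rtl1 were the other genes that stayed under 1 FPKM. The library kit does not mark the strand of a transcript and 60 of the 66 units share their locus with another unit, so for the 18 genes with 2 or more units, reads of a gene and of a transcript on the other strand cannot be told apart. Units are therefore counted, and genes are named by their highest unit unless another is given.

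**Figure D1:**
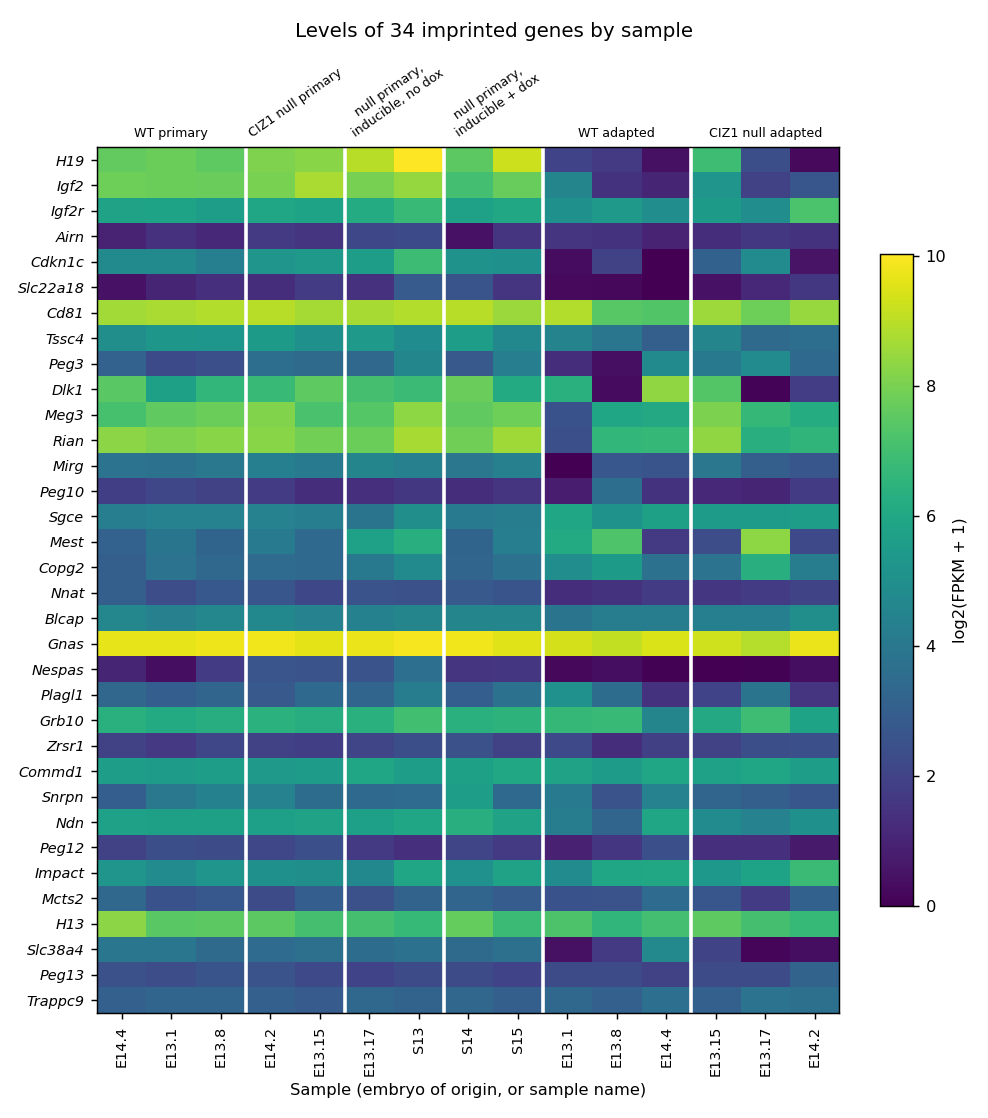
Heat map of log2(FPKM + 1) for the 34 imprinted genes with a mean of at least 1 FPKM (rows) in the 15 samples (columns, named by embryo or sample, grouped by genotype and culture state). The columns of the 9 primary samples look alike for many genes, but Mest, Nespas, H19 and Cdkn1c differ among them as well. H19, Igf2, Cdkn1c, Dlk1, Mest and Slc38a4 range widely over the 6 adapted lines.

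Among the imprinted units called in culture adaptation of WT cells, the non-coding H19, the growth factor gene Igf2 and the cell cycle inhibitor gene Cdkn1c fell most. Comparing the 3 adapted with the 3 primary WT samples (limma on log2(FPKM + 1), Benjamini-Hochberg over 19919 units), 7 of 47 imprinted units tested passed an adjusted p of 0.05, against 9.55% of all units, and 6 of the 7 were lower in adapted cells, where 6.68% of all units were. H19, Igf2, Cdkn1c, Nnat and second units of H13 and Igf2r fell, and Sgce rose. The median change of the imprinted units was -0.42 on the log2 scale and that of all units -0.05. Without overlap between the 2 groups were 18 of the 47 units (38.3%), where 38.7% of all units did not overlap, and 17 of the 18 were lower in adapted cells (36.2%, against 21.4% of all units).

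In CIZ1 null cells 4 of 49 units tested passed the same test between 3 adapted and 3 primary samples, where 4.86% of 20044 units did, and 3 of the 4 were lower (3.47% of all units). Igf2, Nespas and Slc38a4 fell and Sgce rose. The median change was -0.33, and -0.04 over all units. Without overlap were 18 of the 49 units (36.7%, against 37.1% of all units), of which 15 were lower in adapted cells (30.6%, against 19.6%). Igf2 and Sgce were called in both genotypes, or 28.6% of the WT calls and 50% of the null calls. An interaction term fitted to 12 samples tested whether adaptation differed between genotypes, and no imprinted unit passed (0 of 49, against 0% of 20046 units). At an unadjusted p under 0.05 (4.63% of all units) there was 1, Nespas, with a difference of -1.59 and an adjusted p of 0.996 in limma.

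These counts rested on individual samples. For WT cells, without the primary sample of E13.1, E13.8 or E14.4 only 1 imprinted unit was called, H19, while 13 were called without the adapted line of E13.1, 6 without that of E13.8 and 16 without that of E14.4. The calls over all units moved with them, from 1902 to between 62 and 70 without a primary sample and to 1808, 1296 and 2972 without an adapted line. For null cells none was called without any 1 of the 3 primary samples, 15 without the adapted line of E13.15, 3 without E13.17 and 1 without E14.2, where all units gave 25 to 30, 2999, 784 and 40 calls. Because each adapted line derives from a primary population, the test was repeated with embryo as a blocking term: 3 units were called in WT cells (H19, Igf2 and Cdkn1c, of 499 calls over all units) and 0 in null cells (of 10). In the latter 18 of 49 had an unadjusted p under 0.05, as did 26.6% of all units.

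**Figure D2:**
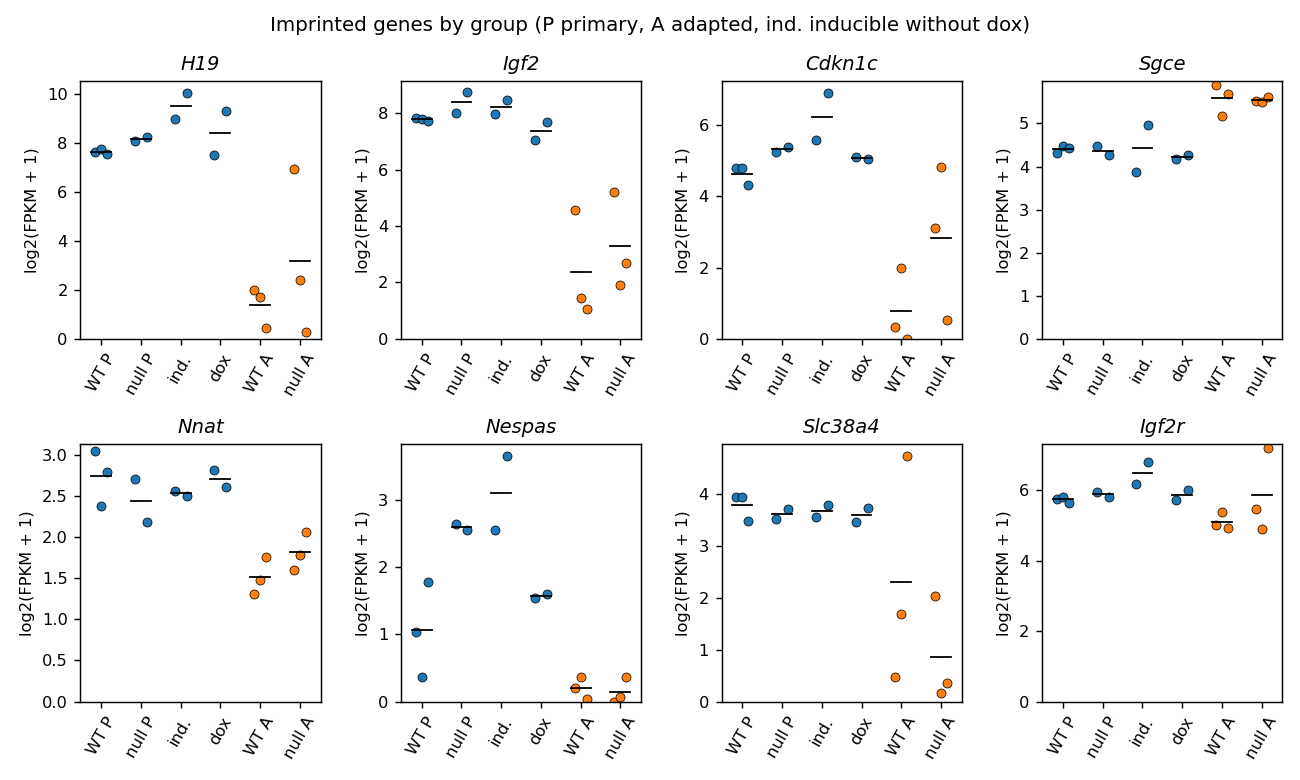
Each point is a sample, as log2(FPKM + 1), in the 6 groups (primary in blue, adapted in orange), and each bar is the mean of a group; every axis starts at 0. H19 and Igf2 lie lower and Sgce higher in all 6 adapted lines than in all 9 primary samples, whereas Cdkn1c, Slc38a4 and Igf2r overlap through single adapted lines.

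H19 and Igf2 are neighbours on chromosome 7 (142575529 to 142578143 and 142650766 to 142666816, both on the minus strand, GRCm38) that share enhancers. H19 is a maternally expressed non-coding RNA and Igf2 encodes a paternally expressed fetal growth factor. H19 stood at 217, 185 and 196 FPKM in primary WT cells of E13.1, E13.8 and E14.4, and at 3.05, 2.25 and 0.382 in their adapted lines. The groups were far apart, and the change of -6.25 (SE 0.40) on the log2 scale had an adjusted p of 0.00261 in limma. It was the only call among the imprinted units to hold with every sample left out (adjusted p 0.000655 to 0.0268). In CIZ1 null cells H19 was 304, 497 and 272 FPKM in the primary samples, in the order E13.15, E13.17 and E14.2, but 121, 4.27 and 0.207 in the adapted lines. All 3 adapted values were below the primary ones, with that of E13.15 far above the other 2, and the change of -5.23 (SE 1.56) did not pass (adjusted p 0.0916 in limma).

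Igf2 was at 218, 211 and 225 FPKM in primary WT cells and at 22.6, 1.74 and 1.08 in the adapted lines, a change of -5.41 (SE 0.88, adjusted p 0.0215 in limma). In null cells it was at 429, 249 and 255 FPKM before adaptation and 36.2, 2.8 and 5.44 after it, a change of -4.96 (SE 0.82, adjusted p 0.0324). Igf2 was thus lower in every adapted line of either genotype, and the 2 lines that kept most of it were E13.1 and E13.15. H19 and Igf2 were also the only genes of the 34 to be lower by more than 1 on the log2 scale in all 6 embryos when each adapted line was set against its own primary population.

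The receptor that clears IGF2, encoded by the maternally expressed Igf2r on chromosome 17, was 55.7, 48.8 and 53.5 FPKM in primary and 31.5, 40.4 and 29.3 in adapted WT cells. These groups did not overlap but the unit did not pass (-0.64, SE 0.18, adjusted p 0.070). Its second unit, at the same locus, was at 32.7 to 37.6 FPKM before and 16.8 to 22.3 after adaptation and was called (-0.81, SE 0.17, adjusted p 0.0383 in limma). It did not pass with units of identical coordinates summed, with quantile normalization, without a filter or in a single fit of 4 groups (adjusted p 0.0506 to 0.223). In null cells Igf2r ranged from 55.5 to 71.9 FPKM in primary samples and was 43.3, 28.9 and 147 in the adapted lines, with E14.2 above every primary sample of the set. Airn, the paternally expressed antisense RNA that silences the paternal copy of Igf2r, stayed between 0.414 and 3.73 FPKM in all 15 samples.

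The Kcnq1ot1 domain, further along chromosome 7, holds Cdkn1c, whose product p57 is a cyclin-dependent kinase inhibitor. Cdkn1c was 26.9, 18.9 and 26.6 FPKM in primary WT cells and 0.259, 2.95 and a listed 0 in the adapted lines (-3.86, SE 0.52, adjusted p 0.0150 in limma). In null cells it was 41.1, 46.7 and 37 FPKM before and 7.72, 27.3 and 0.451 after adaptation, a change of -2.58 (SE 0.99) that did not pass (adjusted p 0.148). The adapted line of E13.17 thus had a Cdkn1c level slightly above those of the 3 primary WT samples. Cd81, a tetraspanin gene at the edge of the domain and its member with the highest level, was at 428, 463 and 399 FPKM in primary WT cells and 464, 172 and 159 in the adapted lines, groups that overlap through E13.1. In null cells Cd81 was 414, 423 and 493 before and 376, 227 and 360 after adaptation. Tssc4 was lower in all 6 adapted lines (7.21 to 22.5 FPKM, against 30 to 42.9 in the 6 primary samples), without a call in either genotype (adjusted p 0.066 and 0.057). Slc22a18 did not exceed 6.39 FPKM, and Kcnq1ot1, the non-coding RNA that silences the paternal copies, was at most 0.254 FPKM in these poly(A)-selected libraries. Phlda2 reached 1.31 FPKM in a single sample, primary E13.17, and Ascl2 was at most 0.266 FPKM.

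On chromosome 12 the Dlk1-Meg3 domain holds Dlk1, a paternally expressed membrane protein gene that restrains differentiation of fat cells, and a row of maternally expressed non-coding RNA, Meg3, Rian (host of small nucleolar RNA) and Mirg. Adaptation did not separate them in the same way in every line. Dlk1 was 50.8, 97.8 and 174 FPKM in primary WT cells and 81, 0.225 and 327 in the adapted lines of E13.1, E13.8 and E14.4. In null cells it was 188, 134 and 108 FPKM before and 163, 0.0622 and 2.53 after adaptation. Dlk1 was thus near 0 in 1 WT and 1 null line and higher than in any primary sample in another, and no change was called (-1.59, SE 1.94 in WT and -4.05, SE 1.73 in null cells).

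Rian, the member of the domain with the highest level, was at 270, 301 and 308 FPKM in primary WT cells and 4.49, 100 and 102 in the adapted lines (-2.93, SE 1.11, adjusted p 0.133 in limma). In null cells Rian was 239, 218 and 302 FPKM before and 329, 77.1 and 93 after adaptation. Meg3 was at 191, 221 and 137 FPKM in primary and 4.79, 59.7 and 65.6 in adapted WT cells, and at 140, 167 and 277 in primary and 268, 102 and 72.2 in adapted null cells. Mirg was 12.5 to 15.3 FPKM in primary WT cells and a listed 0, 5.64 and 5.03 in the adapted lines. The 3 RNA were lowest together in the adapted line of E13.1, which kept Dlk1, and highest together in that of E13.15, which also kept Dlk1. The 2 lines with the least Dlk1, of E13.8 and E13.17, had Meg3 at 59.7 and 102 FPKM. They are the lines in which Thy1 was near 0, and the part of line identity in these levels was not tested. Rtl1, a retrotransposon-derived gene of the domain, was at most 0.573 FPKM. At the far end of the same domain Dio3, a thyroid hormone deiodinase gene from the list of other imprinted genes, was at 0.215 to 0.857 FPKM in the 6 primary samples compared. It stood at 54.1, 9.21 and 0 in the adapted WT lines and 0.241, 39.3 and 0 in the adapted null lines. Dlk1, Meg3, Mirg and Dio3 were chosen after their values were seen.

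**Figure D3:**
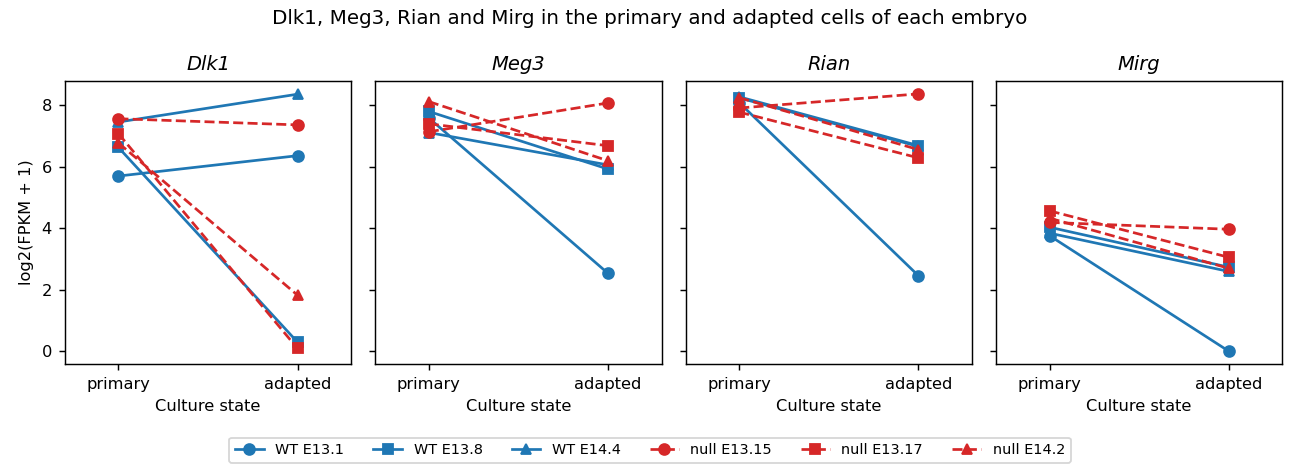
Each line joins the primary and the adapted sample of 1 embryo (WT in blue, CIZ1 null in red and dashed), as log2(FPKM + 1), for 4 genes of the Dlk1-Meg3 domain. Dlk1 drops to near 0 in E13.8 and E13.17 and to 2.53 FPKM in E14.2, while Meg3, Rian and Mirg drop most in E13.1.

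Sgce was the only imprinted gene called higher in adapted cells. It encodes epsilon-sarcoglycan, is paternally expressed, and lies on chromosome 6 head to head with Peg10, their annotated starts (4747207 and 4747306) being 99 bases apart. Sgce was at 21.1, 20.6 and 18.7 FPKM in primary WT cells and 58, 34.8 and 50.7 in the adapted lines (1.18, SE 0.22, adjusted p 0.0300 in limma). In null cells it was 18.3, 13.6 and 21.1 FPKM before and 45, 44.1 and 48.3 after adaptation (1.34, SE 0.21, adjusted p 0.0283). Both groups of adapted lines lay above all primary samples, S13 included at 30.4 FPKM. Peg10, a paternally expressed gene derived from a retrotransposon, was at 1.52 to 3.44 FPKM in the 6 primary samples compared and 0.74, 11.4 and 1.78 in the adapted WT lines. In adapted null lines it was 1.22, 1.06 and 2.47, so the neighbours did not share the direction in every line. Asb4, nearby, was at 5.25 FPKM in the adapted line of E13.8 and at most 0.401 elsewhere, and that line was also the one with the highest Peg10. Ppp1r9a did not exceed 1.11 FPKM.

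Nnat, which encodes the proteolipid neuronatin and lies within an intron of Blcap on chromosome 2, was at 4.2, 5.88 and 7.25 FPKM in primary WT cells and 1.47, 1.78 and 2.39 in the adapted lines (-1.22, SE 0.24, adjusted p 0.0332 in limma). Summed with the units of identical coordinates the change was -0.57 (adjusted p 0.115 in limma). That sum is weighted to Blcap, whose level is higher (change -0.43), so it tests Nnat poorly. Without a filter on FPKM the adjusted p of Nnat was 0.0689 in limma. Nnat kept its call in 1 of 6 fits with a sample left out, that without E14.4 adapted. In null cells it was 3.52, 4.91 and 5.5 before and 2.02, 2.44 and 3.17 after adaptation, without overlap but without a call (-0.67, SE 0.23, adjusted p 0.120). Its host Blcap was at 19.5 to 24.1 FPKM in primary and 13.7 to 18.2 in adapted WT cells, and at 20.3 to 25 and 18.9 to 29.7 in null cells.

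In the Gnas domain on chromosome 2, Gnas itself was at 816, 871 and 817 FPKM in primary and 677, 559 and 700 in adapted WT cells (-0.38, SE 0.15, adjusted p 0.138). In null cells Gnas was at 784, 850 and 909 FPKM before and 637, 477 and 850 after adaptation. Nespas, the paternally expressed antisense RNA of the domain, was at 0.289, 2.42 and 1.05 FPKM in primary WT cells, 0.157, 0.285 and 0.0326 in the adapted WT lines, 4.85, 4.87 and 5.22 in primary null cells, and 0, 0.0453 and 0.283 in the adapted null lines. In null cells the fall was called (-2.44, SE 0.21, adjusted p 0.0130 in limma). Nespas overlaps Gnas, so its reads cannot be assigned to a strand. Summed with the units of identical coordinates the change was -0.38 (adjusted p 0.349 in limma), close to that of Gnas (-0.41). Such a sum follows the unit of far higher level, so it cannot test the fall of Nespas. With a pseudocount of 0.1 the change of Nespas was -4.84 (adjusted p 0.0244 in limma).

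At the Mcts2-H13 domain on chromosome 2, H13, a signal peptide peptidase gene, was at 176, 182 and 315 FPKM in primary and 148, 95.2 and 131 in adapted WT cells. In null cells H13 was 133, 132 and 182 before and 185, 134 and 104 after adaptation. This unit also carries the name of Id1, a neighbouring gene, so its level cannot be given to H13 alone. A second H13 unit of far lower level, at 8.93 to 9.61 FPKM before and 3.37 to 4.86 after adaptation, fell in WT cells (-1.05, SE 0.18, adjusted p 0.0239), and in null cells was at 7.11 to 8.78 and 4.09 to 9.35. Summed with units of identical coordinates the WT change was -0.86 (adjusted p 0.156 in limma), close to that of the first H13 unit (-0.81). That unit is far higher, so the sum cannot test the second unit. Mcts2, a paternally expressed gene inside an intron of H13, was at 2.41 to 10.5 FPKM over all samples.

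Slc38a4, a paternally expressed amino acid transporter gene on chromosome 15, was at 12.1, 10.8 and 10.4 FPKM in primary null cells and 3.11, 0.126 and 0.278 in the adapted lines (-2.74, SE 0.49, adjusted p 0.0375 in limma). With a pseudocount of 0.1, without a filter, summed by coordinates or in a single fit the call was lost (adjusted p 0.0546 to 0.0695). In WT cells it was 14.3, 10.2 and 14.2 before and 0.381, 2.22 and 25.6 after adaptation. The adapted line of E14.4 was thus above every primary sample and the other 5 adapted lines were below all of them.

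Other domains moved in opposite directions in different lines, so that no group change was called. Mest, a paternally expressed hydrolase gene on chromosome 6, was at 13.9, 8.36 and 7.88 FPKM in primary WT cells and 70.1, 154 and 2.29 in the adapted lines. In null cells Mest was at 9.72, 52.1 and 16.7 before and 4.24, 319 and 3.63 after adaptation. It was thus higher by more than 1 on the log2 scale in 3 of the 6 embryos and lower by more than 1 in the 3 others. Copg2, which overlaps Mest tail to tail, was higher in each of the 6 adapted lines than in its own primary population (12.7 to 77.1 against 7.17 to 15.6 FPKM) and was highest in the same 3 lines as Mest. The 2 genes converge, and their reads at the overlap cannot be told apart.

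Peg3, a paternally expressed zinc finger gene, and Usp29, which starts 147 bases from it in the other direction, were likewise split. Peg3 was at 3.72, 4.42 and 7.96 FPKM in primary and 1.47, 0.337 and 26.7 in adapted WT cells, and at 9.98, 9.43 and 11.3 in primary and 15.7, 27.3 and 9.81 in adapted null cells. Usp29 exceeded 1 FPKM in a single sample, the adapted line of E14.4, at 1.56, and Zim1 did not exceed 1.57 FPKM in either of its units. Plagl1, a paternally expressed zinc finger gene on chromosome 10, was at 7.06, 8.61 and 8.91 FPKM in primary WT cells and 33.1, 10.7 and 1.75 in the adapted lines. In null cells Plagl1 was 9.91, 8.66 and 5.99 before and 3.08, 13.6 and 1.82 after adaptation.

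Grb10, an adaptor gene that restrains growth signalling, was at 69.9, 75.4 and 82.4 FPKM in primary WT cells and 102, 110 and 22.6 in the adapted lines. In null cells Grb10 was at 75.9, 80.6 and 83.2 before and 65.7, 118 and 56 after adaptation. Its neighbour Ddc did not exceed 2.87 FPKM. Ndn, a paternally expressed member of the MAGE family in the Snrpn domain on chromosome 7, was at 51.5, 50.5 and 53.2 FPKM in primary WT cells and 17.8, 8.73 and 58.7 in the adapted lines. In null cells Ndn was 54.2, 49.3 and 49.9 before and 27.4, 21 and 31.7 after adaptation, a change of -0.93 (SE 0.20) that did not pass (adjusted p 0.0522 in limma). The adapted line of E14.4 therefore stood apart from the other 5, as it did for Slc38a4. Snrpn was at 4.93 to 48.2 FPKM and Peg12 at 0.658 to 4.42 over all samples.

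Impact, a regulator of translation on chromosome 18, was at 27.6, 36.7 and 36.4 FPKM in primary WT cells and 27.3, 58.1 and 61.9 in the adapted lines. In null cells Impact was 31.1, 25 and 31.7 before and 40.3, 55.1 and 115 after adaptation (1.10, SE 0.38, adjusted p 0.125 in limma). Commd1 and Trappc9 varied little in their highest units; both are widely expressed and imprinted in few tissues. Commd1, whose unit also carries the name of B3gnt2, was at 45.7, 46.7 and 47 FPKM in primary and 53.4, 44.4 and 60 in adapted WT cells, and at 44.9, 60.6 and 41.9 in primary and 52.3, 59.4 and 46.7 in adapted null cells. Trappc9 was at 8.62, 8.78 and 7.4 FPKM in primary and 9.51, 7.44 and 11.8 in adapted WT cells, and at 6.43, 9.24 and 7.5 in primary and 7.52, 13.1 and 11.9 in adapted null cells. Zrsr1 (1.46 to 4.55 FPKM) and Peg13 (2.97 to 8.05 FPKM), the paternally expressed genes that lie within these 2, were not called in any comparison. Rasgrf1, alone in its domain, did not exceed 0.214 FPKM and was listed at 0 in 12 of the samples.

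Set against its own primary population, each adapted line had 11 to 22 imprinted units lower by more than 1 on the log2 scale. These were 17 of 46 units in E13.1, 22 of 51 in E13.8, 17 of 46 in E14.4, 11 of 50 in E13.15, 15 of 49 in E13.17 and 19 of 49 in E14.2. As shares they ran from 22.0 to 43.1%, where 10.0 to 16.4% of all units were lower by as much. Between 1 and 8 units were higher by more than 1 (2 to 16.3%, against 6.05 to 11.3% of all units). Of the 34 genes, 2 were lower by more than 1 in all 6 embryos and 8 never differed by more than 1. Another 6 were lower by more than 1 in some embryos and higher by more than 1 in others. These are differences between single samples, without a test.

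**Figure D4:**
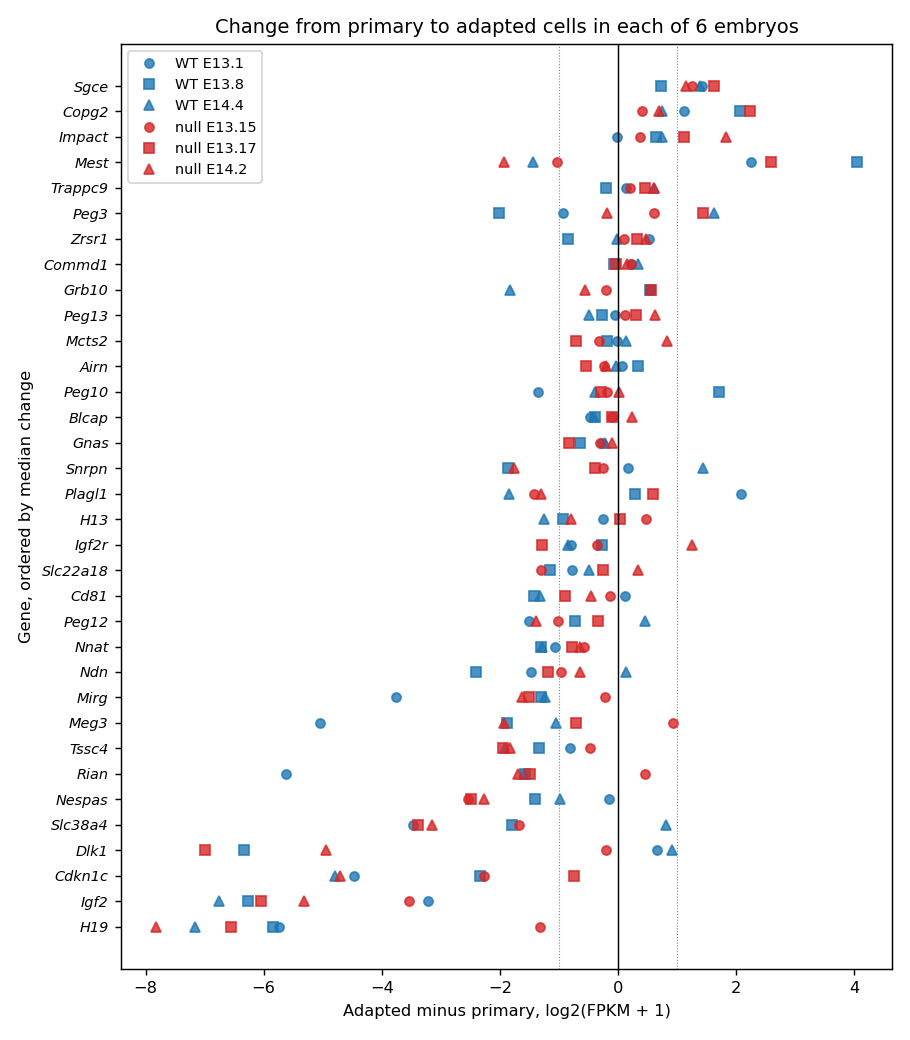
Change from the primary to the adapted sample of each embryo, in log2(FPKM + 1), for the 34 genes ordered by their median (WT in blue, CIZ1 null in red; dotted lines at -1 and 1). H19 and Igf2 lie below -1 in all 6 embryos and Sgce above 0 in all 6, while Mest, Peg3 and Plagl1 have points on both sides.

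The lines also differed from each other more after adaptation. In WT cells the SD among 3 adapted lines exceeded that among 3 primary populations for 30 of the 34 genes (88.2%, and 77.2% of all 20046 units with a mean of at least 1 FPKM over the 12 samples). The median SD on the log2 scale was 0.21 before and 0.79 after adaptation, where all units had 0.18 and 0.36. An SD over 1 was found for none of the 34 genes before and 14 after adaptation (41.2%, and 10.2% of all units). In null cells the SD was larger after adaptation for 29 of 34 genes (85.3%, and 72.2% of all units), and 10 had an SD over 1 (29.4%, and 10.9% of all units), against 1 before, Mest. The largest SD in adapted lines were those of Dlk1 (4.20), Mest (2.94) and Rian (2.43) in WT cells and Dlk1 (3.80), Mest (3.48) and H19 (3.40) in null cells. Library depth, which can only be had relative to a sample from these values, was 0.540 to 1.19 times that of primary WT E14.4 in the adapted lines and 1 to 1.62 times in the 6 primary samples compared, and its part in the spread was not tested.

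**Figure D5:**
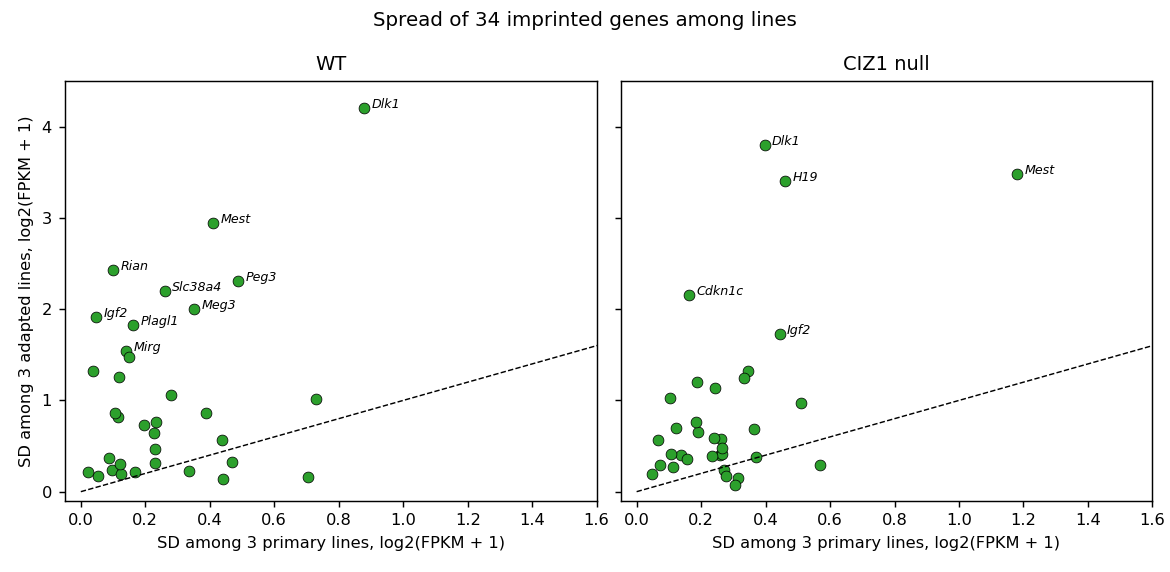
SD of log2(FPKM + 1) among the 3 primary (horizontal axis) and the 3 adapted lines (vertical axis) for 34 imprinted genes in WT (left) and CIZ1 null cells (right), with the line of equality dashed. In WT cells 30 genes lie above the line and in null cells 29; genes with an adapted SD over 1.5 are named.

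Markers of other cells also differed between primary and adapted samples. Transcripts of 5 blood markers summed to 16.8 to 30.8 FPKM in the 6 primary samples compared and 3.26 to 4.79 in the adapted lines, mostly from globin genes. The globin gene Hba-a1 was also low in 2 other primary samples, S13 and S15. It was at 1.37 and 1.71 FPKM there, within the 1.11 to 3.35 of the adapted lines, and at 14.2 in S14. The blood marker sums of S13 and S15, 10.3 and 15.4, lay above those of the adapted lines. Of the 3 blood marker units tested 2 were called lower in either genotype, where 6.68% of all units were in WT and 3.47% in null cells. Of 5 muscle markers Des, an intermediate filament gene, was at 13.3 to 34.1 FPKM in the 6 primary samples compared and 0.0660 to 0.906 in the adapted lines. Its 3 units were called lower in both genotypes, while Myod1 was at 0 in all samples and Myog at most 0.0429. Of 5 epithelial markers the sum was 1.92 to 17.8 FPKM in the same 6 primary samples, 1.32 in S13 and at most 1.38 in adapted samples. The 5 placental markers stayed at or under 0.674 in sum outside the adapted line of E13.1 (17.8, from Hand1). The sum of 4 neural markers was 4.33 to 15.2 FPKM in the same 6 primary samples, 0.828 to 40.8 in adapted WT and 0.0783 to 0.854 in adapted null lines. That of 5 endothelial markers was at most 4.88 in these 12 samples. The 10 fibroblast markers summed to 11292 to 12176 FPKM before and 3548 to 7714 after adaptation. In WT cells 0 of their 19 units were called and 5 had an unadjusted p under 0.05 in limma. Of all units 9.55% were called and 30.6% had such a p. In null cells 4 of the 19 were called lower, where 3.47% of all units were. In bulk samples fewer cells of a type and less RNA per cell cannot be told apart, and the part of other cells in the changes of imprinted genes was not tested.

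Loss of CIZ1 in primary cells gave no call among the imprinted genes, in a limma fit that called only 1 unit of all. From the same populations the study called many more units with Cuffdiff. The absence of a call here therefore does not show that imprinted genes were unchanged. Of 50 units tested between 3 null and 3 WT primary samples 0 passed in limma (0.00511% of 19566 units did), and 10 had an unadjusted p under 0.05, as did 6.26% of all units. Without overlap between the groups were 13 of the 50 units (26.0%, against 11.9% of all units), of which 10 were higher in null cells. H19 was among these, at 272 to 497 FPKM in null and 185 to 217 in WT cells (0.79, SE 0.23, adjusted p 0.682). Cdkn1c was at 37 to 46.7 FPKM in null and 18.9 to 26.9 in WT cells (0.77, SE 0.17, adjusted p 0.628). Nespas was at 4.85 to 5.22 FPKM in null and 0.289 to 2.42 in WT cells (1.52, SE 0.34, adjusted p 0.628), and Peg3 at 9.43 to 11.3 and 3.72 to 7.96 (0.87, SE 0.25, adjusted p 0.682). Peg10 was lower in null cells, at 1.52 to 2.44 FPKM in null and 2.64 to 3.44 in WT cells (-0.50, SE 0.19, adjusted p 0.776). The fourth untreated null sample, S13, had the highest H19 (1046 FPKM), Cdkn1c (118) and Nespas (11.5) of all 15 samples, at the lowest relative depth (0.483).

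Between the 3 null and 3 WT adapted lines 0 of 46 units passed in limma (0.00501% of 19976 units did), and none had an unadjusted p under 0.05, where 4.02% of all units did. Only 4 units did not overlap (8.70%, against 8.28% of all units), all higher in null lines: both units of Meg3, Blcap and Peg13. Taking 1 unit per gene, all 14 genes of textbook maternal expression in the fit were higher on average in adapted null than in adapted WT lines (median 0.41 on the log2 scale). Of 17 paternally expressed genes 8 were higher and 9 lower (median -0.03), and the median of all units was 0.03. The split by textbook allele was not tested. With an adapted line left out, 14 of 15 maternal genes were higher without E13.1 or E14.2, 11 of 15 without E13.15, E13.17 or E14.4 and 11 of 14 without E13.8. In primary cells 11 of 15 maternal and 7 of 18 paternal genes were higher in null samples. Genes of a domain are not independent of each other, some of these differences rest on 1 line (E13.15 for H19, E14.2 for Igf2r), and none was called. The textbook assignments are not specific to fibroblasts, and which copy was read was not measured.

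Induction of GFP-CIZ1 was compared between the 2 doxycycline-treated and the 2 untreated transgenic samples. Of 51 imprinted units 0 passed in limma (0.0101% of 19768 units did), and 3 had an unadjusted p under 0.05, where 1.76% of all units did. Mest was at 52.1 and 79.3 FPKM without and 8.45 and 18.5 with doxycycline (-2.27, SE 0.44, unadjusted p 0.00252 in limma). Nespas was at 4.87 and 11.5 without and 1.92 and 2.03 with doxycycline (-1.53, SE 0.43, unadjusted p 0.0132 in limma), and Airn at 3.47 and 3.73 without and 0.414 and 1.88 with it (-1.19, SE 0.43, unadjusted p 0.0351 in limma). The primary null samples without transgene had Mest at 9.72 and 16.7 FPKM, close to the treated samples. H19 was at 497 and 1046 FPKM without and 181 and 621 with doxycycline, so the 2 groups overlapped. The study induced cells of 2 embryos, among them E13.17, which is also the embryo of an untreated sample here. Treated and untreated samples therefore share at least this embryo. The embryos of S13, S14 and S15 were not assigned here, so the samples were fitted unpaired and the pairing was ignored. There were 2 samples in each group, so a difference is judged against very few degrees of freedom.

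Further imprinted genes and the genes that keep or erase imprints were counted as well. Of 29 other imprinted genes 17 could be tested in WT adaptation (29 units), and 4 units of 2 genes were called, all lower, where 6.68% of all units were. In null cells 3 of 28 units were called, all lower, where 3.47% of all units were, and they belonged to the same 2 genes. These were Tfpi2, a protease inhibitor gene (7.11 to 27.8 FPKM in the 6 primary samples compared and at most 5.05 in the adapted lines), and Osbpl5, a lipid transfer protein gene (43.9 to 56.4 and 13.6 to 26.2), each summed over its units. Of 16 genes that maintain or remove imprints, 2 of 22 units were called in WT adaptation and 1 of 22 in null adaptation, near the 9.55% and 4.86% of all units. A unit of Trim28, which encodes a corepressor that protects imprints with ZFP57, fell in both genotypes (-1.73 and -1.83, adjusted p 0.0225 and 0.0311 in limma), while its other unit did not pass (-0.38 and -0.58). A unit of Ctcf, which encodes the insulator protein that binds the H19 control region, rose in WT cells (0.96, SE 0.23, adjusted p 0.0491). Dnmt1 and Uhrf1 copy methylation at replication. They were at 23.8 to 32.6 and 16.3 to 31.1 FPKM in the 6 primary samples compared, and at 13.7 and 10.8 in S13. S14 and S15 lay within the ranges of the 6. In the adapted null lines of E13.17 and E14.2 Dnmt1 was at 7.63 and 9.87 and Uhrf1 at 0.963 and 5.46 FPKM. The other 4 adapted lines had 24.3 to 31.9 and 25.2 to 31.4.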

How the data were processed

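RNA was poly(A)-selected and sequenced from 15 samples in 6 groups. Per the labels and the study's methods, the authors trimmed reads with cutadapt 1.8.3, aligned them to GRCm38 with HISAT2 2.0.5, assembled and merged transcripts with Cufflinks and made normalised values with Cuffnorm, and the deposited FPKM per transcription unit were used here. A second deposited file, of the authors' own comparisons with Cuffdiff 2.2.1 (group means, fold changes, p-values and q-values), was not used. FPKM carry no counts, so the depth of each sample is unknown and was compared only relative to primary WT E14.4 (0.483 to 1.62), from the steps between low values.

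Differences between groups were fitted on log2(FPKM + 1) by lmFit and trended eBayes (limma 3.58.1, R 4.3.3), a scale that understates changes of low genes. Units entered with a mean of at least 1 FPKM over the samples of the fit, the Benjamini-Hochberg adjustment took in every unit of the fit, and 0.05 was the threshold. All p are two-sided. The script was tested on simulated data. Replicates are populations from separate embryos, except in the doxycycline comparison. There treated and untreated samples share at least the embryo E13.17, the embryos of S13, S14 and S15 were not assigned, and the fit was unpaired. Embryos were read from the study's per-line lists, whose values were identical to those deposited, and pair each adapted line with its primary population (correlation of deviations -0.0054 to 0.211 in WT and -0.019 to 0.106 in null cells). Every column of values had a sample. Genes named with all values are each unit called in any comparison and the highest unit of each domain; other genes named with values were chosen after their values were seen. The members and lists were chosen with earlier results of these data known. Gene coordinates come from GENCODE M21 (GRCm38) and sequences from RefSeq (GRCm38.p6). Python 3.11.15, NumPy 2.4.6, pandas 2.3.3 and Matplotlib 3.10.9 were used for the rest.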

Additional observations from a re-analysis of the deposited data

How the results depend on the processing

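The 11 changes called in the report were recomputed 149 times under other settings; all 149 kept their direction and 86 stayed under the adjusted p of 0.05. Counts of imprinted units called moved more. The number of units tested changes with some settings, so counts are given with it. WT adaptation gave 7 of 47, and 4 of 27 with units of identical coordinates summed. It gave 3 of 47 with the embryo as a replicate block, and 1 to 16 of 46 to 49 with a sample left out. Null adaptation gave 4 of 49, and 2 of 64 with no filter on FPKM. It gave 0 of 49 with the embryo as a replicate block or with only the 2 primary null samples without transgene. With a sample left out it gave 0 to 15 of 48 to 49. Over all units, WT adaptation gave 1902 calls of 19919 units, 897 of 10472 with summed units and 988 of 36025 without filter. Of 19919 it gave 2707 with all 4 groups in a single fit and 499 with the block. With a sample left out it gave 62 to 2972 of 19691 to 19946. Null adaptation gave 975 calls of 20044 units, 496 of 10562 with summed units and 322 of 35400 without filter. Of 20044 it gave 2969 in the single fit and 10 with the block. With a sample left out it gave 25 to 2999 of 19882 to 20066. It gave 30 of 19983 with the 2 samples without transgene and 449 of 20023 with all 4 untreated primary null samples. Every fit used a single estimate of spread per unit, shared by its groups, also where an arm was left with 2 samples. The cause of the shifts in the counts was not tested. Loss of CIZ1 in primary or in adapted cells, doxycycline and the interaction gave 0 imprinted units under every setting run. FPKM near 0 have no known floor, since depth is known only relative to another sample.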
